A study of Homo sapiens with 6 samples.

Results

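The genes described here encode 10 enzymes that make or modify nicotinamide adenine dinucleotide (NAD): NAMPT, NMRK1, NAPRT, QPRT, NADSYN1, NMNAT1, NMNAT2, NMNAT3, NADK and NNMT. They were taken by symbol, through their Ensembl gene identifiers, and all 10 were found among the 60708 gene identifiers of the count files. The study measured RNA in U2OS, an established human osteosarcoma cell line, with 3 biological replicates in each of 2 groups. Cells of the control group were kept in DMSO, the solvent, and cells of the treated group in 25 µM PDD00017273, called PARGi here, for 4 days in both cases. PDD00017273 inhibits poly(ADP-ribose) glycohydrolase (PARG), which cuts poly(ADP-ribose) chains back into ADP-ribose units. All cells were wild type, and the comparison covers 1 line, 1 inhibitor, 1 dose and 1 time. RNA levels were measured, whereas enzyme protein, enzyme activity and NAD itself were not.

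NAD carries electrons in metabolism and is also consumed as a substrate, by enzymes that transfer its ADP-ribose part to proteins and by sirtuins, which remove acyl groups from proteins. Both kinds of consumer release nicotinamide. Cells rebuild NAD from nicotinamide by salvage, from nicotinic acid by the Preiss-Handler pathway and from tryptophan by the de novo pathway, and these routes meet at the NMNAT enzymes. NAD kinases turn part of the pool into NADP, and NNMT methylates nicotinamide, which takes it out of salvage.

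The libraries held 60286931 to 80605145 counts. Levels are given as CPM, counts scaled to a common library size after TMM, an adjustment that sets libraries of different depth and composition side by side. The scaling factors ran from 0.995 to 1.01. Of the osteoblast lineage markers, COL1A1 (261263 to 358834 counts per library), SPARC and RUNX2 were abundant, whereas the late marker IBSP was at 0 in all 6 libraries, SP7 at no more than 2 counts and BGLAP at no more than 10 counts. Of the 5 osteoblast markers tested, 1 was higher and 3 were lower in PARGi, while 24.3% of all tested genes passed. The lower ones were COL1A2 (-42.7%, edgeR adjusted p = 1.6e-08), RUNX2 (-17.2%, edgeR adjusted p = 5.0e-08) and SPARC (-5.62%, edgeR adjusted p = 0.00653). ALPL was higher (17.7%, edgeR adjusted p = 0.0364). Summed over 3 markers each, epithelial genes lay at 5.37 to 5.86 CPM in DMSO and 5.09 to 5.48 CPM in PARGi. Leukocyte genes lay at 1.20 to 1.40 and 1.29 to 1.43 CPM, and endothelial genes at 2.85 to 3.67 and 3.17 to 4.07 CPM. None of these 3 sums separated the groups, but the 3 epithelial genes did singly and in opposite directions. CDH1 passed as higher (0.718 ± 0.0247 to 1.14 ± 0.208 CPM, SD, n = 3 each, edgeR adjusted p = 0.0104), and EPCAM and KRT5 lay below DMSO without passing. The part of these marker changes in the results below was not tested.

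The comparison of PARGi with DMSO asked which of the enzyme transcripts differ after PARG inhibition. Small rises were found in genes of salvage (NAMPT), de novo synthesis (QPRT), the shared adenylylation step (NMNAT1 and NMNAT2) and the final amidation (NADSYN1), and a small fall in NNMT. Transcripts of NMRK1, NAPRT, NMNAT3 and NADK did not pass the test. All 10 genes had enough counts for the test, edgeR's quasi-likelihood test with Benjamini-Hochberg adjustment over all 20409 tested genes and a threshold of 0.05. With it, 6 of the 10 passed, 5 higher and 1 lower, against 24.3% of all tested genes (13.2% higher, 11.0% lower). The 10 genes were chosen with earlier results of these data known, and the difference from that share was not tested. The background split depended on the scaling: 2700 of 4951 calls were higher (54.5%), against 2003 of 4947 (40.5%) with upper-quartile scaling, under which 3 of the enzymes were higher and 1 was lower. Genes with more counts pass more readily: among tested genes that averaged 5 CPM or more the share was 34.7%, and 9 of the 10 enzymes were in that range, with the same 6 calls. The groups did not overlap for those 6 genes either, 5 with PARGi above and 1 with PARGi below. Of all tested genes, 38.0% had groups that did not overlap, 19.8% with PARGi above and 18.2% with PARGi below.

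The changes were small, and in bulk RNA a change in every cell and a change in some of the cells cannot be told apart. The median log2 fold change of the 10 enzymes was 0.10, beside -0.0070 for all tested genes, and every called enzyme changed by less than 15%, from -5.83% (NNMT) to 14.5% (NMNAT2). The median absolute log2 fold change of all tested genes was 0.11, close to that of NAMPT. The count of calls rested in part on single libraries: without PARGi replicate 2 only NAMPT, QPRT and NMNAT2 passed, 3 of 10, while 17.5% of all genes passed in that fit.

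**Figure D1:**
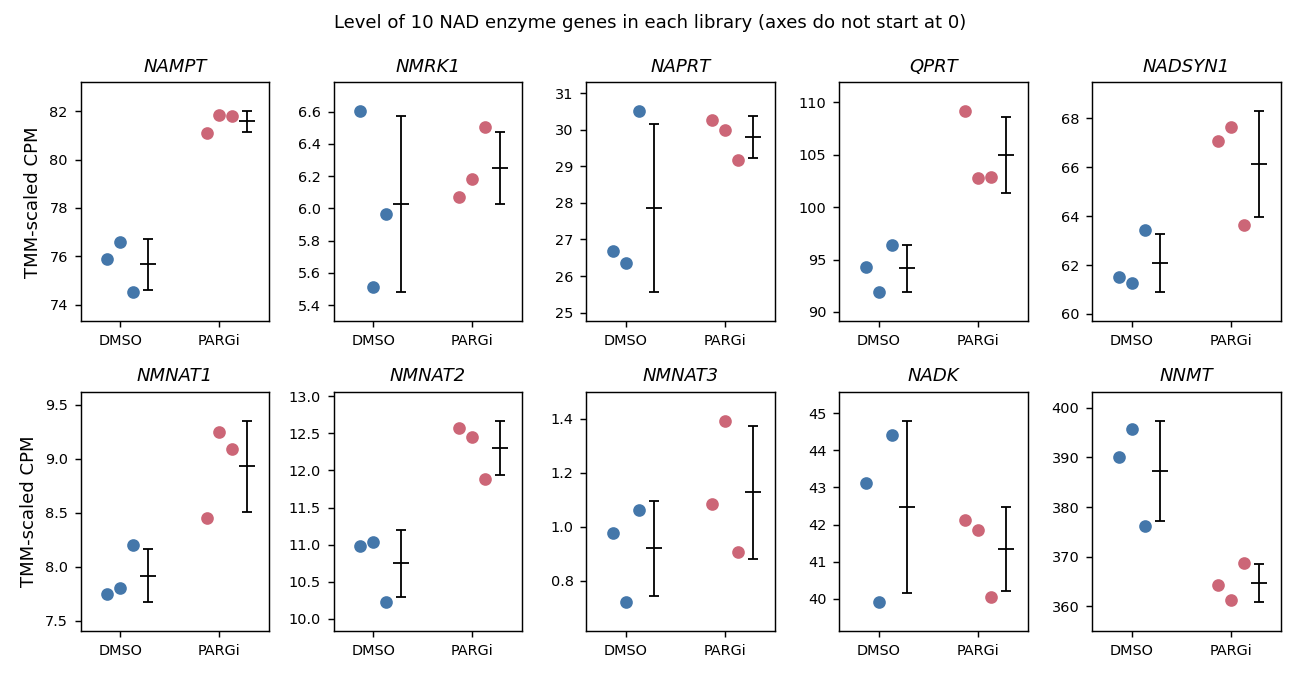
TMM-scaled CPM (vertical axes, which do not start at 0) of each of the 10 enzyme genes in 3 DMSO and 3 PARGi libraries; points are libraries, bars beside them the mean and SD of a group. The PARGi points lie above all DMSO points for NAMPT, QPRT, NADSYN1, NMNAT1 and NMNAT2 and below them for NNMT; in the other 4 panels the groups overlap.

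NAMPT makes nicotinamide mononucleotide from nicotinamide and is the rate-limiting enzyme of salvage. The gene (ENSG00000105835.13) spans chromosome 7 from 106248285 to 106286326, minus strand (GENCODE 29, GRCh38). Its level was 75.9, 76.6 and 74.5 CPM in DMSO replicates 1, 2 and 3 and 81.1, 81.8 and 81.8 CPM in PARGi replicates 1, 2 and 3. The PARGi libraries lay close together and above every DMSO library. Means were 75.7 ± 1.07 and 81.6 ± 0.419 CPM (SD, n = 3 each), a rise of 7.85% with a 95% confidence interval from 3.81% to 12% (log2 fold change 0.11, SE 0.027, edgeR adjusted p = 0.00383). The call held in all 14 alternatives, with log2 fold changes from 0.084 to 0.12. Of the processed pseudogenes of NAMPT, which could share its reads, NAMPTP1 had 17 to 30 counts per library against 4817 to 6578 for NAMPT, and NAMPTP2 and NAMPTP3 had none. NAMPTP1 did not pass the test (log2 fold change -0.072, edgeR adjusted p = 0.889). An antisense gene without a symbol overlaps 8.69% of the exonic bases of NAMPT on the opposite strand and had 17 to 40 counts.

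NMRK1 phosphorylates nicotinamide riboside to the same mononucleotide, which is the other entry to salvage. On chromosome 9 (75060573 to 75088217, minus strand), it was at 6.60, 5.51 and 5.97 CPM in the DMSO libraries and 6.07, 6.18 and 6.50 CPM in the PARGi libraries. The highest value and the lowest value were both in the DMSO group, which spans the PARGi group entirely. A change was not detected (edgeR adjusted p = 0.652), and the interval runs from -6.70% to 15.8%. Its relative NMRK2 had at most 1 count in any library and was too low for a test, against 351 to 523 counts for NMRK1.

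Genes around salvage were taken from a list of 7 for precursor supply and nucleotide turnover. Of the 5 tested, 1 passed (20%), PNP, against 24.3% of all tested genes. PNP, purine nucleoside phosphorylase, splits nucleosides and also acts on nicotinamide riboside. It was at 30.6, 32.0 and 31.2 CPM in the DMSO libraries and 38.5, 38.5 and 38.5 CPM in the PARGi libraries. The rise of 23.3% (interval 17.4% to 29.5%, edgeR adjusted p = 4.11e-07) stands beside at most 14.5% among the called enzymes of the 10; that difference was not tested. The phosphoribosyl donor of NAMPT, NAPRT and QPRT is made by PRPS1 and PRPS2, neither of which passed (log2 fold changes 0.038 and 0.073, edgeR adjusted p = 0.444 and 0.122). The 5'-nucleotidases NT5C2 and NT5C3A did not pass either, NT5C3A with an edgeR adjusted p of 0.0526.

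NAPRT starts the Preiss-Handler pathway by joining nicotinic acid to a phosphoribosyl group, and its presence lets cells make NAD without NAMPT. The gene lies on chromosome 8 (143574785 to 143578649, minus strand). Its values were 26.7, 26.4 and 30.5 CPM in DMSO and 30.3, 30.0 and 29.2 CPM in PARGi. DMSO replicate 3 lay above all PARGi libraries and the other DMSO libraries lay below them. The difference did not pass (6.72%, interval -0.0762% to 14%, edgeR adjusted p = 0.148). That library decided the outcome: without DMSO replicate 3 the log2 fold change was 0.17 instead of 0.094 (edgeR adjusted p = 0.00299). An annotated antisense gene covers 27.8% of the exonic bases of NAPRT on the opposite strand and had 1 to 8 counts per library against 1679 to 2346 for NAPRT.

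QPRT ends the de novo branch by turning quinolinic acid into nicotinic acid mononucleotide. On chromosome 16 (29679008 to 29698699, plus strand; ENSG00000103485.19), it had the smallest p among the 10 genes. Its level was 94.3, 91.9 and 96.4 CPM in DMSO and 109, 103 and 103 CPM in PARGi, so each PARGi library exceeded each DMSO library, and PARGi replicate 1 was the highest. Means were 94.2 ± 2.26 and 105 ± 3.64 CPM (SD, n = 3 each), a rise of 11.3% with an interval from 6.76% to 16.1% (log2 fold change 0.15, SE 0.029, edgeR adjusted p = 0.000339). All 14 alternatives kept the call, between 0.13 and 0.17. GENCODE 29 lists another protein-coding gene without a symbol on the same strand that covers 15.7% of the exonic bases of QPRT. That gene is not analysed here, and how reads in the shared bases were counted is not given in the sources used here.

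The steps that lead from tryptophan to quinolinic acid had little RNA in these cells. Of 8 genes on the list of kynurenine steps, 3 were tested and 1 passed, where 24.3% of all tested genes passed. HAAO, which makes the direct precursor of quinolinic acid, was at 0 counts in all 6 libraries, as was IDO2. ACMSD, which is on the list but is not a step towards quinolinic acid, was also at 0 counts. A count of 0 allows up to 3 counts, or 0.0373 to 0.050 CPM in these libraries, for counting error alone. KMO had 5 to 11 counts and IDO1 a single count in 1 library. KYNU averaged 0.569 ± 0.106 CPM (SD, n = 3) with DMSO and 0.504 ± 0.00891 CPM (SD, n = 3) with PARGi. TDO2, which opens the tryptophan ring, was at 1.15, 1.11 and 0.820 CPM in the DMSO libraries and 1.43, 1.30 and 1.37 CPM in the PARGi libraries; it did not pass (edgeR adjusted p = 0.068). AFMID, the formamidase of the next step, passed as lower, from 14.1 ± 0.527 to 12.6 ± 0.208 CPM (-10.5%, interval -16.7% to -3.94%, edgeR adjusted p = 0.020). Its call was lost without DMSO replicate 1, PARGi replicate 1 or PARGi replicate 3 (log2 fold changes of -0.19 to -0.14 over all alternatives). Per kb of exons in DMSO, AFMID was the highest of the 8 genes at 3.49 CPM, beside 25.9 CPM for QPRT.

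NADSYN1 amidates nicotinic acid adenine dinucleotide to NAD with glutamine, the last step of the Preiss-Handler and de novo routes. On chromosome 11 (71453109 to 71524107, plus strand), it was at 61.5, 61.3 and 63.4 CPM in the DMSO libraries and 67.1, 67.6 and 63.6 CPM in the PARGi libraries. The groups did not overlap, but PARGi replicate 3 exceeded DMSO replicate 3 by little. The rise was 6.44% (interval 1.88% to 11.2%, log2 fold change 0.090, SE 0.031, edgeR adjusted p = 0.0334). The call was lost in 7 of 14 alternatives, among them DESeq2, upper-quartile scaling (log2 fold change 0.066) and the fits without DMSO replicate 1 (0.081), DMSO replicate 2 (0.081), PARGi replicate 1 (0.080) or PARGi replicate 2 (0.073); the direction held in all 14. Adjusted p-values ran from 0.0158 to 0.171 over the alternatives.

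The NMNAT enzymes join a mononucleotide to the adenylyl part of ATP and serve every route. NMNAT1 is nuclear, NMNAT2 sits on Golgi and other cytoplasmic membranes and is best known from axons, and NMNAT3 is mitochondrial. Transcripts of NMNAT1 and NMNAT2 passed as higher, and NMNAT3 was too rare for a precise estimate.

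NMNAT1 (chromosome 1, 9943428 to 9985501, plus strand) was at 7.75, 7.80 and 8.20 CPM in the DMSO libraries and 8.45, 9.25 and 9.09 CPM in the PARGi libraries. Every PARGi library was above the DMSO group, with PARGi replicate 1 the closest to it. The rise was 12.9% with a wide interval, 3.32% to 23.4% (log2 fold change 0.18, SE 0.062, edgeR adjusted p = 0.0416). It passed in 6 of 14 alternatives, and DESeq2 and the fits without DMSO replicate 1 (0.16), DMSO replicate 2 (0.17), PARGi replicate 2 (0.15) or PARGi replicate 3 (0.16) were among those in which it did not. Adjusted p-values ran from 0.0319 to 0.157 over the alternatives. Its 5 processed pseudogenes held 1 count in all libraries together.

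NMNAT2 (chromosome 1, 183248237 to 183418602, minus strand) had the largest change of the 6 called genes. Its level was 11.0, 11.0 and 10.2 CPM in DMSO and 12.6, 12.5 and 11.9 CPM in PARGi. DMSO replicate 3 was the lowest library and PARGi replicate 3 the lowest of its own group. Means were 10.7 ± 0.454 and 12.3 ± 0.367 CPM (SD, n = 3 each), a rise of 14.5% (interval 5.94% to 23.7%, log2 fold change 0.20, SE 0.054, edgeR adjusted p = 0.00986). The call held in 13 of 14 alternatives and was lost without DMSO replicate 3 (0.16, adjusted p = 0.0540).

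NMNAT3 (chromosome 3, 139560180 to 139678017, minus strand) had 46 to 79 counts in DMSO and 65 to 103 in PARGi. Its values of 0.977, 0.722 and 1.06 CPM in DMSO overlapped those of 1.08, 1.39 and 0.908 CPM in PARGi. The interval of -7.76% to 60.6% (edgeR adjusted p = 0.321) includes no change and also changes several times those of NMNAT1 and NMNAT2, so a difference was not detectable at this depth.

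**Figure D2:**
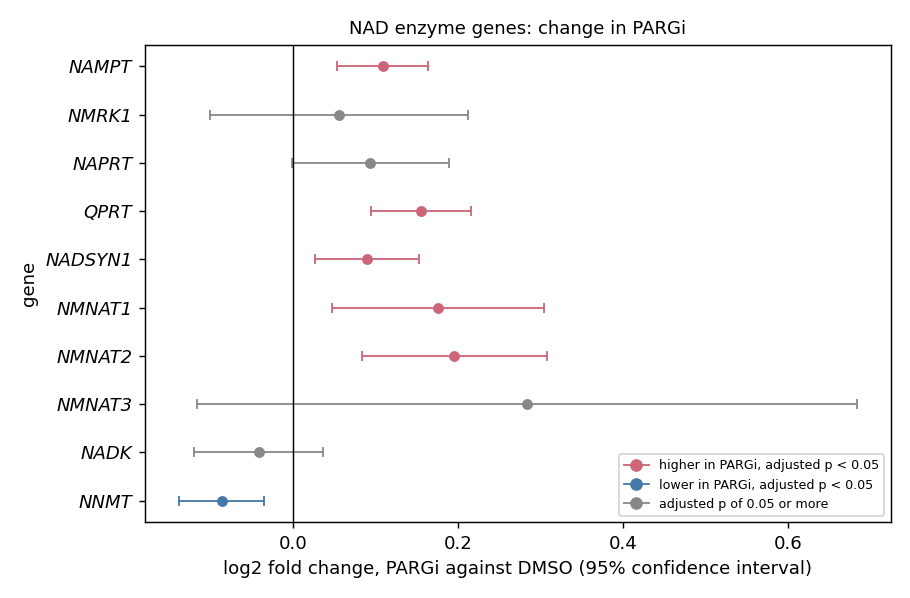
Log2 fold change of PARGi against DMSO (horizontal axis) for each of the 10 enzyme genes, with its 95% confidence interval from edgeR; colour marks genes past an adjusted p of 0.05. The intervals of NAMPT, QPRT, NADSYN1, NMNAT1 and NMNAT2 lie above 0 and that of NNMT below; NMNAT3 has the widest, from -0.12 to 0.68.

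Bases upstream of the RefSeq starts of 3 genes that rose are shown because these genes had long enough stretches outside annotated exons. In each of these windows the longest unbroken stretch outside exons has at least 41 bases. For NMNAT1 and NMNAT2, which also rose, that stretch has only 24 and 28 bases. The RefSeq promoter table (GRCh38.p14) matched 7 of the 10 enzymes, with NAPRT, NMRK1 and NNMT unmatched. In the 250 bases before the most upstream RefSeq start, 4 motifs were searched on both strands: CACGTG (the E-box), GGGCGG (the GC box), CCAAT and TGACG. The windows of NAMPT (chr7:106284984-106285233) and NADK (chr1:1780032-1780281) lie inside the spans that GENCODE 29 gives these genes, so they are not upstream of the GENCODE starts. Those of NMNAT1, NMNAT2 and NADSYN1 run across the GENCODE starts. Matches are in capitals, in the orientation of the gene, and bases in exons that GENCODE 29 annotates are left out.
QPRT, chr16:29678758-29679007, plus strand: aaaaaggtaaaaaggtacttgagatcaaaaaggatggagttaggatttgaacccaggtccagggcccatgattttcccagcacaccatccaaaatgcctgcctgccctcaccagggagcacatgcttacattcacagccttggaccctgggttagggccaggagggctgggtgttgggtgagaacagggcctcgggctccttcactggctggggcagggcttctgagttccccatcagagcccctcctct
NADSYN1, chr11:71452953-71453108, plus strand: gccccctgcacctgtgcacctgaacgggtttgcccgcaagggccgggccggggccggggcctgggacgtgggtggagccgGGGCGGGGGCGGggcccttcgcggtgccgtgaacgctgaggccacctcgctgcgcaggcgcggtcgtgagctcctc
NAMPT, chr7:106285193-106285233, minus strand: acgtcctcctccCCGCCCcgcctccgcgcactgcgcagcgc

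The 5 genes that rose did not share a searched motif. QPRT held none of the 4 in its window. NADSYN1 held 5 GC boxes and 1 TGACG over its whole 250-base window, NAMPT 3 GC boxes and 3 TGACG, NMNAT1 1 GC box and 1 CCAAT, and NMNAT2 1 TGACG. These counts include bases in annotated exons, which made up 222 of the 250 bases for NMNAT2 and 209 for NAMPT. For NMNAT1, exons of the gene itself and of LZIC on the opposite strand covered 187 bases. Exons covered 94 for NADSYN1 and 0 for QPRT. Of the 2 matched genes that did not pass, NMNAT3 held 3 GC boxes and NADK 1. CACGTG was in none of the 7 windows, where 6.47% of 27326 promoters of the same length hold it. The share of all promoters with a match was 42.2% for GGGCGG, 33.0% for CCAAT and 21.6% for TGACG. GC content ran from 41.6% (NMNAT3) to 77.6% (NADSYN1), with 55.6% in QPRT, beside a median of 57.6% over all promoters. These matches describe letters only, and no binding was measured.

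NADK phosphorylates NAD to NADP in the cytosol. On chromosome 1 (1751232 to 1780457, minus strand), its level was 43.1, 39.9 and 44.4 CPM in DMSO and 42.1, 41.9 and 40.0 CPM in PARGi. All 3 PARGi libraries lay within the span of the DMSO group. It did not pass (-2.84%, interval -7.96% to 2.57%, edgeR adjusted p = 0.478). The list of 4 genes for NADP balance had 1 call (25%), against 24.3% of all tested genes. This was the mitochondrial kinase NADK2. It fell from 50.6, 53.9 and 51.7 CPM to 45.0, 49.3 and 47.6 CPM, a change of -9.01% (interval -13.5% to -4.32%, edgeR adjusted p = 0.00572), and lost its call without PARGi replicate 1 (log2 fold change -0.10 instead of -0.14, adjusted p = 0.0560). The transhydrogenase NNT, which passes electrons between NADH and NADPH in mitochondria, and the NADPH phosphatases NOCT and HDDC3 did not pass. Whether NADK and NADK2 differ from each other in response was not tested, and their intervals overlap.

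NNMT moves a methyl group from S-adenosylmethionine to nicotinamide. It lies on chromosome 11 (114257787 to 114313285, plus strand) and had the most counts of the 10 genes. Its level was 390, 396 and 376 CPM in DMSO and 364, 361 and 369 CPM in PARGi. All PARGi libraries were below the DMSO group, whose replicate 3 was the closest. Means were 387 ± 10.1 and 365 ± 3.85 CPM (SD, n = 3 each), so that it fell by 5.83% (interval -9.14% to -2.40%, log2 fold change -0.087, SE 0.025, edgeR adjusted p = 0.0129). The call was lost without PARGi replicate 2 (-0.079, adjusted p = 0.0808) and held in the other 13 alternatives.

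The product of NNMT is oxidised by AOX1, aldehyde oxidase. AOX1 had the largest change among all tested genes of the 7 other NAD lists, from 4.33, 3.72 and 4.14 CPM in DMSO to 5.79, 6.21 and 6.64 CPM in PARGi. The rise was 53.2% (interval 36.2% to 72.5%, edgeR adjusted p = 4.96e-06) and passed in all 14 alternatives. The methyl donor genes on the same list of 4 did not pass: MAT2A and MAT2B, which form S-adenosylmethionine synthetase, had log2 fold changes of -0.0036 and 0.0097, and AHCY, which clears the used donor, -0.048.

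Per length, the 10 genes covered a 1872-fold range of levels in DMSO, from 133 ± 3.47 CPM per kb of exons for NNMT to 0.0709 ± 0.0136 for NMNAT3 (SD, n = 3 each). QPRT followed NNMT at 25.9 ± 0.619 CPM per kb. NAPRT (9.05 ± 0.748), NAMPT (8.36 ± 0.118) and NADK (7.63 ± 0.416) formed a middle group, with NADSYN1 at 3.82 ± 0.0729. NMNAT1 (1.72 ± 0.0528), NMRK1 (1.56 ± 0.142) and NMNAT2 (1.5 ± 0.0633) were near each other, and the DMSO ranges of NMNAT1 and NMRK1, and of NMRK1 and NMNAT2, overlapped. In PARGi, NMNAT2 at 1.72 ± 0.0512 CPM per kb stood above NMRK1 at 1.62 ± 0.0583, again with overlapping ranges, and the rest of the order was the same. These values divide by the union of all annotated exons, which is long for genes with many rare transcripts: 16263 bases for NADSYN1 against 2773 for its principal transcript. Divided by the longest principal transcript, a choice made after the data were seen, NADSYN1 ranked next after QPRT in DMSO, at 22.4 ± 0.428 CPM per kb, and NNMT, QPRT and NMNAT3 kept their places. The range between NNMT and NMNAT3 was then 524-fold.

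**Figure D3:**
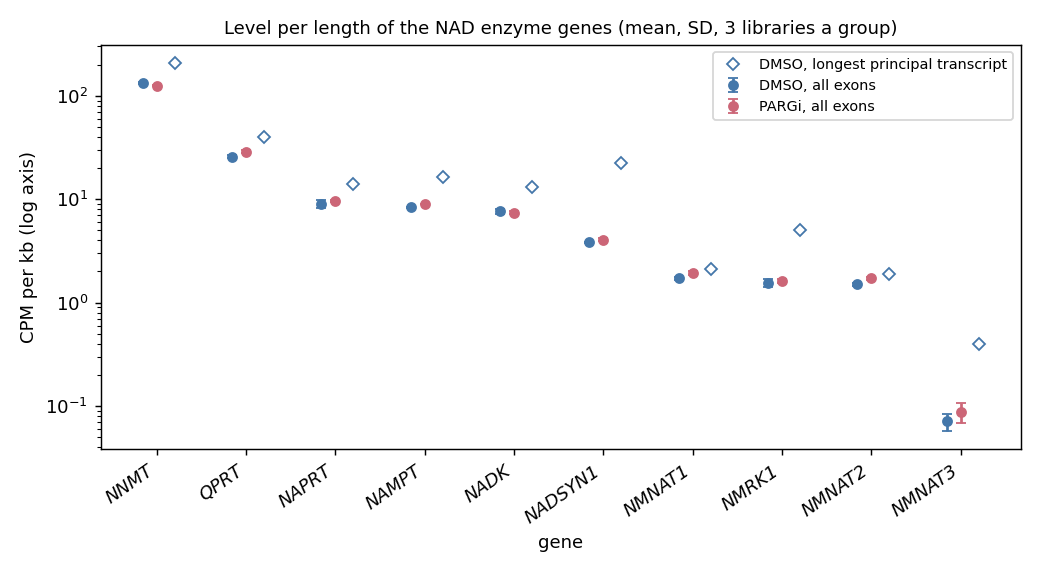
Level per length (CPM per kb, log axis) of the 10 enzyme genes, as mean and SD over 3 libraries of a group for the union of exons (filled), and as the DMSO mean for the longest principal transcript (open). NNMT is the highest and NMNAT3 the lowest by either length; the place of NADSYN1 depends on the length used.

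The genes that carry NAD or its precursors across membranes gave 1 rise and 1 fall among 4 tested of 6. That is 50% of those tested, against 24.3% of all tested genes. SLC29A1 and SLC29A2 encode equilibrative nucleoside transporters, which also carry nicotinamide riboside. SLC29A1 fell from 179, 176 and 174 CPM to 162, 160 and 160 CPM (-8.69%, interval -11.9% to -5.38%, edgeR adjusted p = 0.000347). SLC29A2 rose from 31.3, 31.2 and 30.1 CPM to 34.0, 33.3 and 33.5 CPM (8.76%, interval 3.42% to 14.4%, edgeR adjusted p = 0.0133). Its call was lost with upper-quartile scaling and without DMSO replicate 3 or PARGi replicate 1 (lowest log2 fold change 0.097). SLC25A51, the mitochondrial NAD carrier, did not pass (14.3 ± 0.141 and 14.9 ± 0.720 CPM, SD, n = 3 each, edgeR adjusted p = 0.381).

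Of 14 genes for enzymes that consume NAD, 13 were tested and 1 passed (7.69%), SIRT2, against 24.3% of all tested genes. SIRT2, a mainly cytosolic deacetylase, was at 21.1, 20.5 and 20.4 CPM in the DMSO libraries and 22.1, 23.4 and 21.8 CPM in the PARGi libraries (8.70%, interval 2.32% to 15.5%, edgeR adjusted p = 0.0396). Its call was lost in 9 of 14 alternatives, among them each fit without a DMSO library and those without PARGi replicate 1 or 2, with log2 fold changes down to 0.088. PARP1, the main poly(ADP-ribose) polymerase, had an interval of -1.91% to 5.53%. SIRT1, the nuclear deacetylase, had one of -7.56% to 0.722%. CD38, an NAD glycohydrolase of immune cells, had 0 to 4 counts per library. Among 6 NUDIX and ENPP hydrolases, 5 were tested and NUDT12, which cleaves NADH and NAD caps on RNA, passed as lower (7.60 ± 0.539 to 6.60 ± 0.461 CPM, SD, n = 3 each, -12.9%, interval -21.5% to -3.41%, edgeR adjusted p = 0.0469). It passed in 6 of 14 alternatives, and not in those without DMSO replicate 1 or 2 or PARGi replicate 1 or 2.

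**Figure D4:**
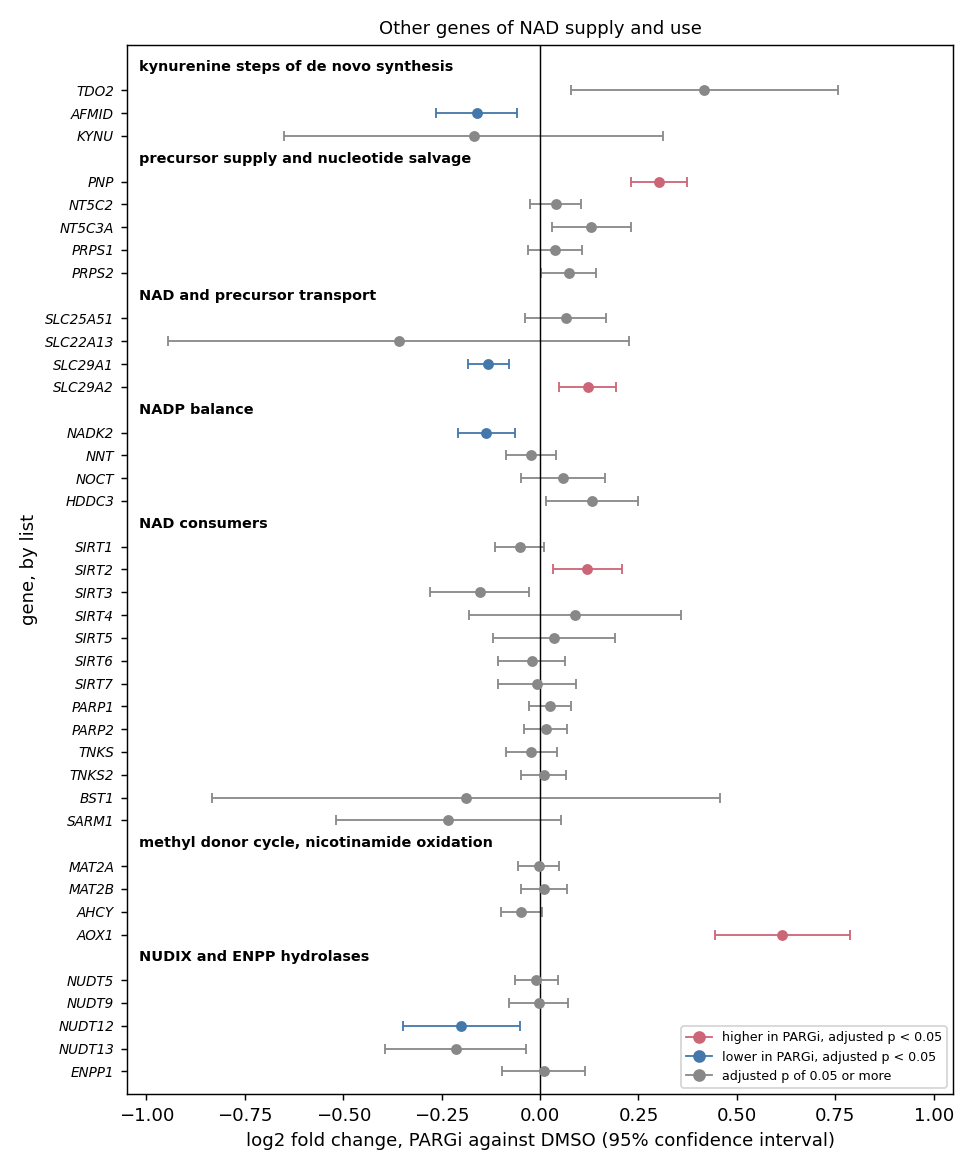
Log2 fold change of PARGi against DMSO (horizontal axis) with 95% confidence intervals for the 38 tested genes of 7 lists of NAD supply and use; colour marks genes past an adjusted p of 0.05. AOX1 (0.62) and PNP (0.30) are farthest from 0 among the 8 coloured genes, 4 of them higher and 4 lower.

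Over these 7 lists together, 8 of 38 tested genes passed, 4 higher and 4 lower, which is 21.1% against 24.3% of all tested genes, at a median log2 fold change of 0.0029. The split was 2 higher and 7 lower with upper-quartile scaling, and 2 higher and 4 lower without DMSO replicate 3. Without PARGi replicate 1 the count was 4. The 10 enzymes had 5 rises among 6 calls. The difference between the enzymes and these lists was not tested.

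**Figure D5:**
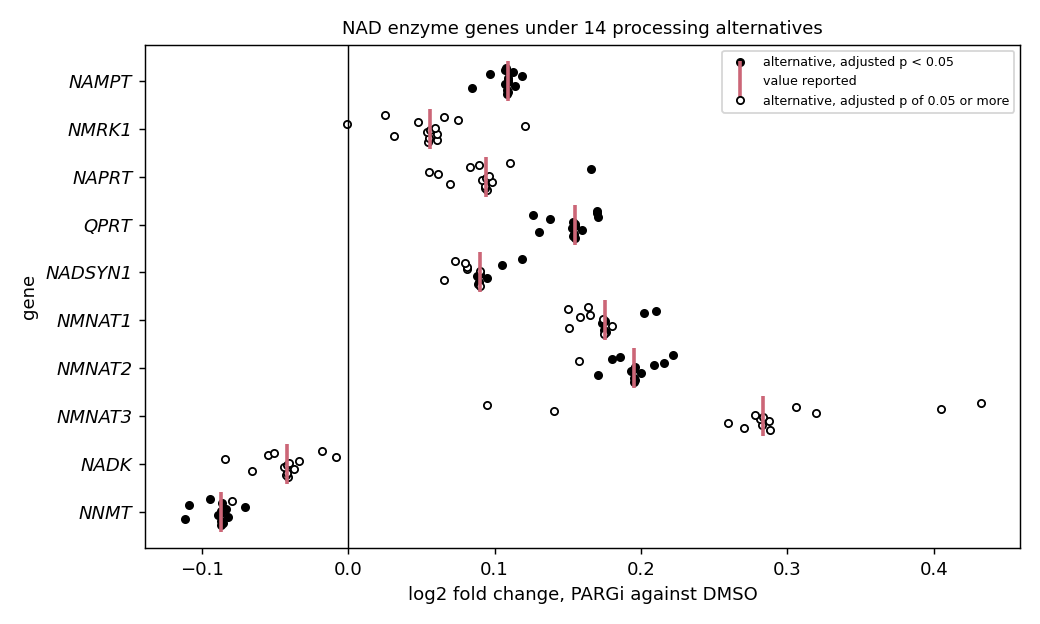
Log2 fold change of PARGi against DMSO (horizontal axis) of the 10 enzyme genes as reported (vertical bar) and in 14 processing alternatives (points; filled where the adjusted p is under 0.05). Points of NAMPT and QPRT are all filled, those of NMNAT1 and NADSYN1 are mixed, and NMRK1 has 1 point marginally below 0.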

How the data were processed

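Total RNA libraries were made with a strand-keeping kit, per the labels' protocols. The authors deposited raw whole-number counts per gene, 1 column per library. The submitters' processing notes name cutadapt 1.18, STAR 2.7.3a, SAMtools 1.9, deepTools, DESeq2 and the hg38 build, with no role or order; annotation release and filters are not given in the sources used here. No row lacked a gene. Groups and replicate numbers came from the sample titles. Gene symbols came from a table of names, and positions and lengths from GENCODE 29, which held 58440 of the identifiers.

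All 6 libraries were fitted in edgeR 4.0.16 under R 4.3.3 (filterByExpr, TMM, glmQLFit, two-sided glmQLFTest on treatment). The SE was derived from the log2 fold change and its F statistic. The named genes were the 10 enzymes, up to 4 called genes per list by smallest p, 6 fixed genes, and pseudogenes and same-strand overlaps; others were chosen after their values were seen. The members and lists were chosen with earlier results of these data known. Alternatives were DESeq2 1.42.0, limma-voom (limma 3.58.1), RLE and upper-quartile scaling, no filter, at least 10 counts in every library, a robust fit, a replicate block and each library left out. The main edgeR fit, its replicate-block and upper-quartile versions, limma-voom and DESeq2 were tested on simulated data. The other alternatives were not. No outcome of those tests is given here, either for changes as small as those of the called enzymes or for larger ones. The labels record no molecular identifiers, so limits from a count of 0 cover counting error only. Protein sequences were not used here. Figures were drawn with matplotlib 3.10.9.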

Additional observations from a re-analysis of the deposited data

How the results depend on the processing

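Over 14 alternatives, NAMPT and QPRT kept their calls in all, NMNAT2 and NNMT in 13, NADSYN1 in 7 and NMNAT1 in 6. No called enzyme changed sign; the uncalled NMRK1 ranged from -0.00099 to 0.12. Of the 10 enzymes, 4 passed with DESeq2 and 4 with upper-quartile scaling, 3 of them higher in each. Of the 20409 genes kept by the same filter, 4120 passed with DESeq2 and 4947 with upper-quartile scaling, against 4951 in the main fit. With single libraries left out, the count ran from 3 (without PARGi replicate 2) to 6, and the median log2 fold change from 0.092 to 0.13. Over the 7 other lists the count of 8 ran from 4 (without PARGi replicate 1) to 9 (without PARGi replicate 3), and over all genes that of 4951 from 3607 to 4848. The median of all genes was -0.032 with upper-quartile scaling and -0.034 with no filter. No label says that a replicate number marks a shared day. Deviations of same-numbered libraries correlated at -0.0031, 0.0016 and -0.025 across genes, and no library correlated best with its own number. With the replicate block, 4553 of the 20409 genes and 4 of the 10 enzymes (3 higher) passed, NMNAT1 and NADSYN1 not among them. Depth limits NMNAT3 most, at 46 to 103 counts per library.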
